A study of Homo sapiens with 6 samples.

Results

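The genes described here are the heat shock proteins and their DNAJ co-chaperones, followed from wild-type pancreatic cancer cells to cells in which the transcription factor ZEB1 had been targeted. Members were taken by name: symbols beginning HSPA, HSPB, HSPD, HSPE or HSPH and a number, or DNAJA, DNAJB or DNAJC and a number, with hyphenated symbols and those ending in P and digits left out. The rule gave 71 of the 26334 symbols in the count table, 26 with an HSP name and 45 with a DNAJ name. It left out 11 further rows, among them antisense genes and read-through transcripts, and also 2 protein-coding genes, HSPBP1 and HSPBAP1, whose names happen to end in P1. The HSP90 genes do not match the pattern and are given with the other chaperone genes near the end.

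MiaPaCa2 is an established human line of pancreatic ductal adenocarcinoma, and ZEB1 is a repressor that binds E-boxes and is known for holding carcinoma cells in a mesenchymal state. The series holds poly-A RNA-seq of 3 WT clones and 3 ZEB1-KO clones of this line. WT clones were sorted as GFP-positive cells after electroporation with pSpCas9-2A-GFP, for which no guide is named, and ZEB1-KO clones after electroporation with ZEB1.gRNA-pSpCas9-2A-GFP. All clones therefore carried Cas9-GFP at sorting, grew in DMEM with 10% fetal bovine serum, and were profiled from 2000 lysed cells each. No heat shock or other stress treatment is named for either group, and the question put to the members is how their steady-state RNA differed between the clones.

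As background, HSP70 proteins bind exposed hydrophobic stretches of unfolded chains and release them in a cycle driven by ATP. DNAJ proteins, also called HSP40s, carry a J domain that delivers clients to HSP70 and speeds its ATP hydrolysis, while exchange factors such as the HSP110 proteins reset the cycle by releasing ADP. Each compartment has its own set: HSPA8 and the stress-inducible HSPA1A and HSPA1B in the cytosol, HSPA5 (BiP) in the endoplasmic reticulum, and HSPA9 (mortalin) with the HSPD1-HSPE1 chaperonin in mitochondria. Heat shock factor HSF1 induces the cytosolic genes through repeats of GAA and TTC, and the unfolded protein response induces those of the endoplasmic reticulum.

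Totals ran from 18909305 to 42876693 counts per library, with 16552 to 17530 symbols counted, and 3 counts corresponded to 0.0687 to 0.150 CPM (counts scaled to library size) depending on the library. ZEB1 itself measured 34.0, 31.2 and 33.6 CPM in WT replicates 1 to 3 and 3.34, 3.46 and 11.5 CPM in the ZEB1-KO clones. Its difference of -2.43 on the log2 scale (SE 0.49) had an adjusted p of 0.0930 in edgeR's quasi-likelihood test, and DESeq2 gave 3.3e-05. ZEB1-KO replicate 3 kept the most ZEB1 RNA of the 3 clones. The epithelial keratin KRT8 ran from 719.8 to 875 CPM in WT, against 1632 to 2117 CPM in ZEB1-KO. KRT18, another such keratin, came closer to overlap, at 1366 to 2177 CPM in WT against 2288 to 2844 CPM in ZEB1-KO. The mesenchymal marker VIM was lower but still abundant in ZEB1-KO, at 1342 to 2175 CPM against 3045 to 3788 CPM in WT. CDKN2A, reported as deleted in this line, had 0 counts everywhere. Of the markers of other cell types, INS had 0 counts, PTPRC and PRSS1 at most 3, PDGFRB at most 2, CELA3A at most 1 and PECAM1 at most 23 counts in any library.

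The control sequences of 3 loci introduce the families: HSPA8 and HSPA5 hold textbook elements of the heat shock and endoplasmic reticulum stress responses, and HSPD1 and HSPE1 share a short stretch between their starts. Each is read from RefSeq on GRCh38.p14, a later build than the one the counts were made on. The HSPA8 promoter is the 250 bases before the start site at chr11:123062137-123062386, minus strand, and its capitals mark 2 matches to the heat shock element, read here as GAA, TTC and GAA with 2 free bases between neighbours (GAA-NN-TTC-NN-GAA), one on each strand. The HSPA5 promoter is the 250 bases at chr9:125241344-125241593, minus strand, and its capitals mark the match to the endoplasmic reticulum stress element, CCAAT and CCACG with 9 free bases between them. HSPD1 and HSPE1 lie head to head, and the stretch between their start sites, chr2:197500275-197500378 on the plus strand, is 104 bases long and holds 0 matches to any of the 3 motifs searched, so it has no capitals.
HSPA8: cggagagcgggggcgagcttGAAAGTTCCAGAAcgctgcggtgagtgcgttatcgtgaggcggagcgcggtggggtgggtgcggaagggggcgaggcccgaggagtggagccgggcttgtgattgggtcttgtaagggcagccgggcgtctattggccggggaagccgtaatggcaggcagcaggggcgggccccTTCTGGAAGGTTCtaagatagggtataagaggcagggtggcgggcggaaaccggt
HSPA5: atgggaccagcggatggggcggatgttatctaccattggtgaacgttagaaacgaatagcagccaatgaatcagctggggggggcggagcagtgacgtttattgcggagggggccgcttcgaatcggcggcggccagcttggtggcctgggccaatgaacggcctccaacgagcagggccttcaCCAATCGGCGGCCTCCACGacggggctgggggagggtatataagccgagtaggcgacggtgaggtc
HSPD1-HSPE1: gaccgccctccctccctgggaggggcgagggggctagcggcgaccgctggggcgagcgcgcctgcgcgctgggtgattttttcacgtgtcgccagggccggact

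Motifs were searched on both strands of windows of 250 bases before and 50 from the start site. RefSeq windows were matched for 62 of the 71 members, with HSPB11 listed under its current symbol IFT25. The heat shock element stood in 4 of these 62 windows (6.45%) and in 133 of 27305 windows genome-wide (0.487%). Beside the 2 matches of HSPA8, at -230 and -55 from the start, it lay at +4 in DNAJA1 as GAACTTTCCAGAA, at -131 in DNAJB6 as GAACCTTCGCGAA and at -74 in HSPA6, on the opposite strand, as TTCGCGAAAGTTC. The endoplasmic reticulum stress element stood in HSPA5 alone among the members, at -66, and in 22 windows genome-wide (0.0806%). CAGGTG, the E-box letters that ZEB1 binds, stood in 8 member windows (12.9%) against 20.6% of all windows. These 8 were DNAJB8, DNAJB13, DNAJC4, DNAJC5, DNAJC25, DNAJC28, DNAJC30 and HSPA12A. The elements do not overlap each other's letters in the sequences shown, and a match describes letters only. Only exact matches were counted, so a window without one may still hold a looser form of an element.

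Levels between genes are compared on the deposited TPM, which is scaled for gene length. Of the members, 51 were listed there: 17 had a mean of at least 100 TPM over the 6 libraries, 11 lay from 10 to under 100 and 23 lay below 10. The median was 12.6 TPM, against 8.18 over all listed genes. HSPA8, the constitutive cytosolic HSP70, was the most abundant at 2451 TPM, followed by the chaperonin subunit HSPD1 at 1323 and its lid HSPE1 at 1024 TPM. In WT alone HSPE1 had the higher mean, 976 TPM against 871 TPM for HSPD1. DNAJA1, a main cytosolic J protein, stood at 454, HSPA9 at 375, DNAJC8 at 274, HSPB1 at 264, HSPB11 at 262 and HSPA5 at 239.8 TPM. The neighbours DNAJC8, HSPB1, HSPB11 and HSPA5 had close means and overlapping libraries, so these values do not fix their order. The libraries of DNAJA1 and HSPA9 overlapped as well.

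At the other end, 15 members had too few counts to be tested. The highest count among them was 25, and 11 of them had at most 3 counts in every library. HSPA7, HSPB3, HSPB6 and HSPB7 were at 0 in all 6 libraries. Small heat shock proteins hold unfolded chains without using ATP. The members with an HSPB name were the emptiest group, with 2 of 8 tested. Of these 2, HSPB11 encodes a subunit of another complex, as given below. HSPA6, an HSP70 whose RNA is known to appear mainly after stress, had 7, 0 and 0 counts in WT and 5, 3 and 1 in ZEB1-KO.

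**Figure D1:**
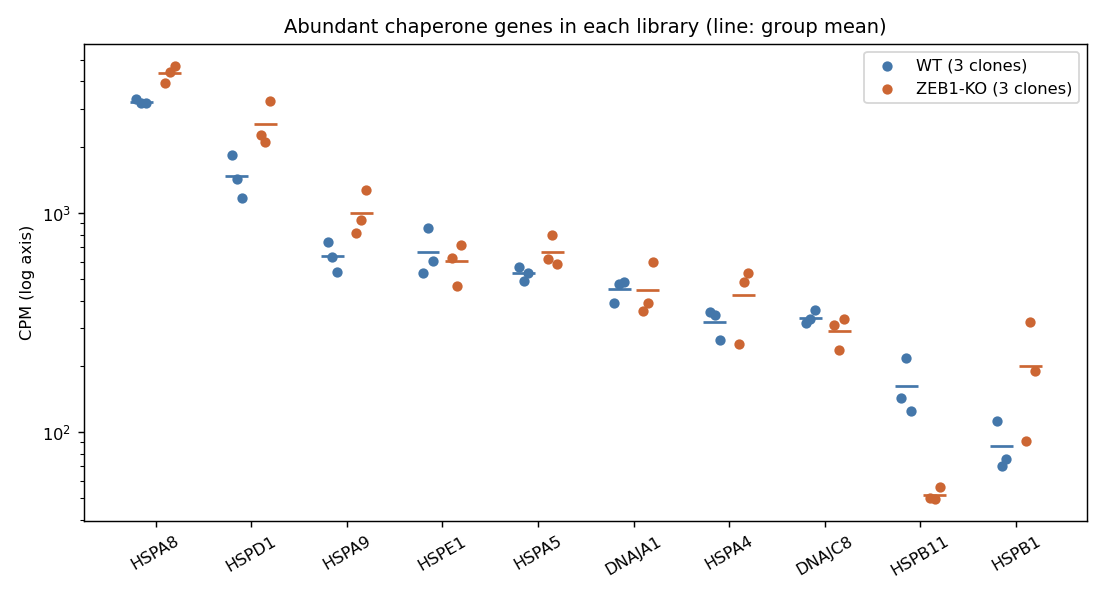
CPM (log axis) of abundant members in the 3 WT and 3 ZEB1-KO libraries, with a line at each group mean. HSPA8, HSPD1, HSPA9 and HSPA5 have every ZEB1-KO library above every WT library, HSPB11 has the reverse order, and HSPE1, DNAJA1, HSPA4, DNAJC8 and HSPB1 overlap.

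Between ZEB1-KO and WT, none of the 56 tested members passed an adjusted p of 0.05 in the quasi-likelihood test (0 higher, 0 lower), where 0.176% of all 13659 tested genes were called, 0.117% higher and 0.0586% lower. There were 14 members with p below 0.05 before adjustment, or 25%, against 17.7% of all genes. The 17.7% is not matched for abundance, and the share was larger among abundant genes, as given below. The 14 members split into 7 higher (9.64% of all genes) and 7 lower (8.04% of all genes). The higher ones were HSPA1A, HSPA9, HSPB1, HSPD1, DNAJA3, DNAJC7 and DNAJC11, and the lower ones were HSPB11, DNAJA4, DNAJB4, DNAJC15, DNAJC17, DNAJC21 and DNAJC24. Of the 8 members with a CAGGTG in the window, DNAJB8 was not tested and the others are not among these 14. With so few genes this is a description only. With library size alone as the scaling this split was 11 higher and 5 lower, and on log2 of TPM plus 1 it was 12 higher and 3 lower. Single libraries moved it as well: it was 4 higher and 10 lower without ZEB1-KO replicate 3, when HSPA9, HSPD1, DNAJC7 and DNAJC24 were no longer among them, 1 and 6 without WT replicate 3, and 3 and 5 without WT replicate 2. Leaving out ZEB1-KO replicate 2 gave 4 higher and 5 lower, and leaving out ZEB1-KO replicate 1 gave 11 higher and 6 lower. In 19 members (33.9%) the groups did not overlap, where 23.6% of all genes had no overlap. Of these, 10 were higher in ZEB1-KO (11.9% of all genes) and 9 lower (11.7% of all genes).

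DESeq2 called 5 members, DNAJA3 higher and HSPB11, DNAJA4, DNAJB4 and DNAJC15 lower, where it called 7.12% of 13135 genes (4.34% higher, 2.78% lower). edgeR's likelihood ratio test called 3, DNAJA3, DNAJA4 and HSPB11, where it called 4.52% of genes (2.75% higher, 1.76% lower). The authors' deposited table lists 51 of the members and has 2 of them below an adjusted p of 0.05, DNAJA3 at 1.07 (adjusted p 0.0188) and HSPB11 at -1.65 (adjusted p 7.2e-05), where it calls 4.75% of its 11013 genes (2.82% higher, 1.92% lower). The number of members called therefore ran from 0 to 5 with the test used on the same counts.

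The members had no common direction. Of the 56 tested, 23 had a positive and 33 a negative log2 fold change, and the median was -0.12 against -0.0082 over all genes and a range from -3.31 to 1.21. The sign of that median depends on scaling: library size alone gave 0.03 where all genes stood at 0.14, and TPM gave 0.13 where all genes stood at 0.23, so relative to all genes the members lay lower by 0.11 or 0.10 under each of these. The 17 tested HSP members had a median of 0.33 with 9 positive, and the 39 tested DNAJ members a median of -0.14 with 14 positive. Relative to all genes these medians were 0.34 and -0.13, and under the other scalings they stayed between 0.33 and 0.35 and between -0.14 and -0.12. On TPM they rest on 13 HSP and 33 DNAJ members. Rescaling moves all genes nearly alike, so values relative to all genes hardly move and do not measure the spread between clones. No median with a library left out is given for either list. Without ZEB1-KO replicate 3, the median of all tested members was -0.22, and without WT replicate 2 it was -0.013. There were 11 members of the 56 whose own sign changed under another scaling, DNAJA1, DNAJB6, DNAJB11, DNAJC5, DNAJC8, DNAJC13, DNAJC16, DNAJC19, DNAJC22, HSPA13 and HSPE1.

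**Figure D2:**
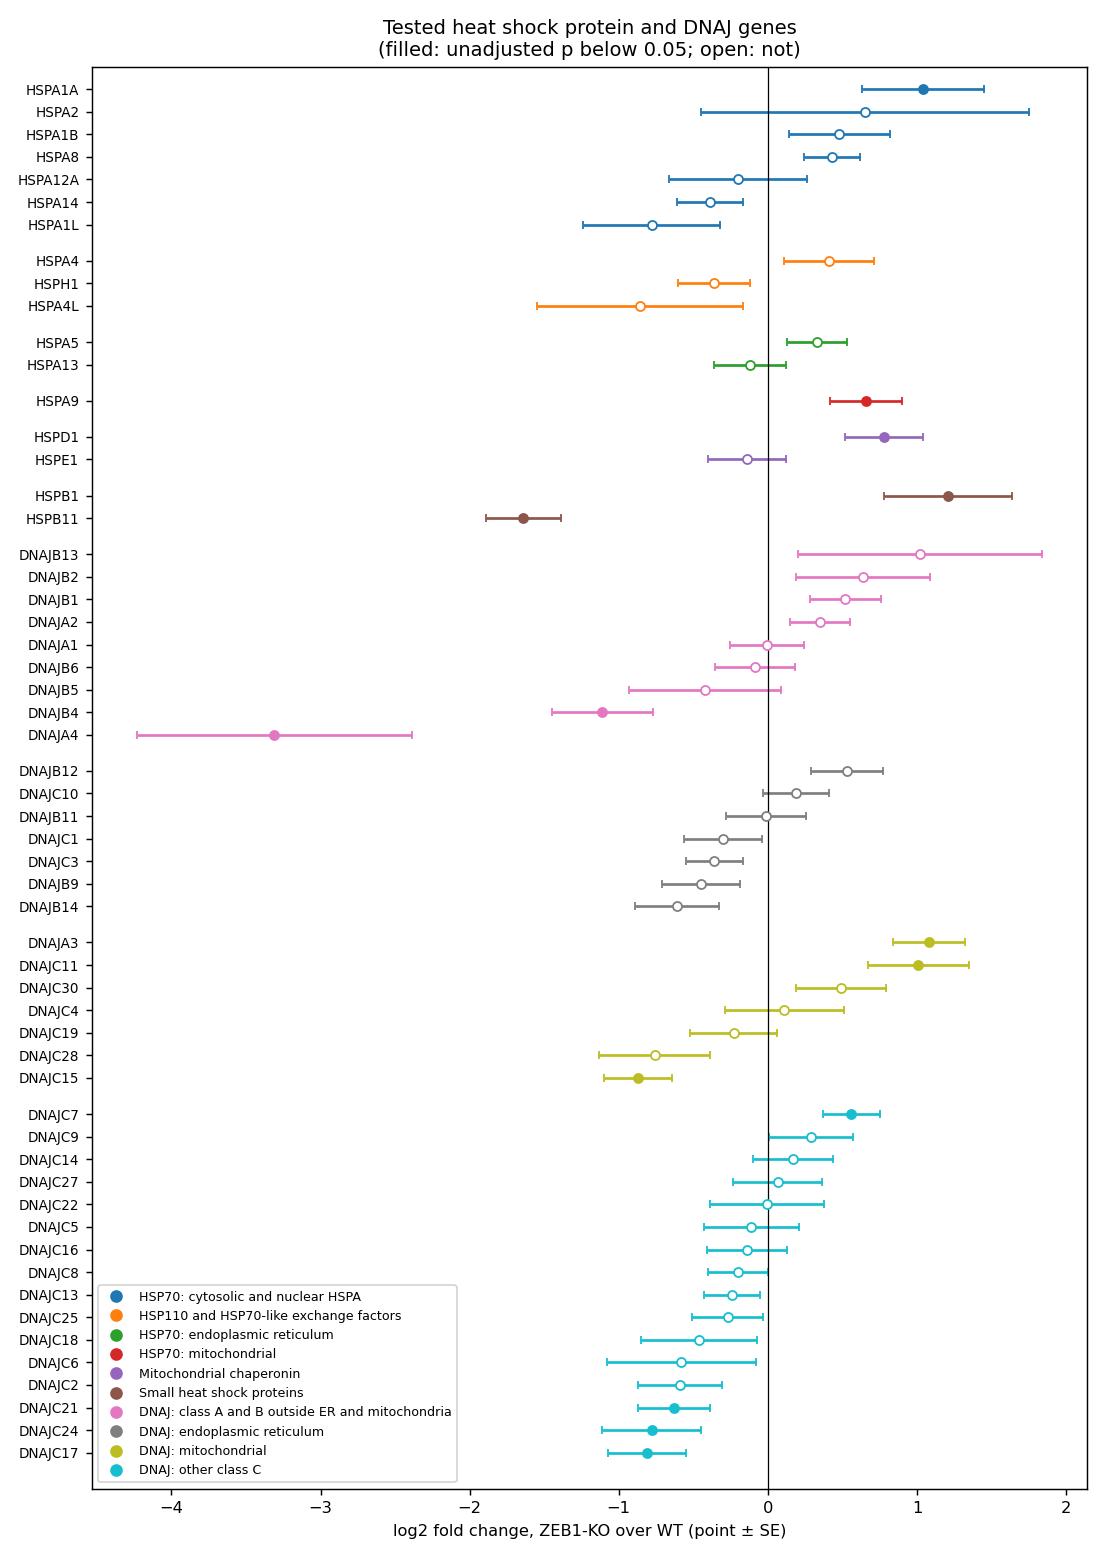
Log2 fold change of ZEB1-KO over WT (point) with its standard error (bar) for the 56 tested members, grouped by role and coloured by group, with filled points at an unadjusted p below 0.05. Values run from -3.31 for DNAJA4 to 1.21 for HSPB1, and most groups hold members on both sides of 0.

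HSPA8 carried more of the members' RNA than any other gene. It measured 3339, 3181 and 3200 CPM in WT, against 3941, 4436 and 4724 CPM in ZEB1-KO, or 3240 ± 86.1 against 4367 ± 396 (SD, n = 3). All 3 ZEB1-KO clones lay above all WT clones. The log2 difference was 0.43 (SE 0.19), with an adjusted p of 0.288 in edgeR's quasi-likelihood test and a 95% interval from -0.0071 to 0.87. RefSeq names 20 HSPA8 pseudogenes, and the sources do not say how reads that fit several copies were counted.

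The inducible pair HSPA1A and HSPA1B, which encode nearly the same protein, was scarce in both groups. HSPA1A had 29, 36 and 26 counts in WT and 32, 108 and 48 in ZEB1-KO, or 0.664, 1.11 and 1.05 against 1.6, 2.67 and 1.49 CPM. The ZEB1-KO libraries were the higher ones throughout, with a log2 difference of 1.04 (SE 0.41) and an adjusted p of 0.240 in edgeR's quasi-likelihood test. HSPA1B, at 6.25, 13.0 and 11.3 CPM in WT, against 11.6, 18.5 and 12.3 CPM in ZEB1-KO, overlapped, with a log2 difference of 0.48. Because reads of the 2 copies may have been split between them, their sum is the safer quantity: it was 6.92, 14.1 and 12.3 CPM in WT against 13.2, 21.2 and 13.8 CPM in ZEB1-KO, and the groups overlapped.

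Among the other cytosolic HSP70s, HSPA2, a testis-enriched form, had 10, 29 and 25 counts in WT and 6, 115 and 2 in ZEB1-KO. One ZEB1-KO clone, replicate 2, held nearly all of the ZEB1-KO counts: the fitted difference was 0.65 with all libraries and -2.05 without that clone, and neither passed the test. HSPA14 acts with the J protein DNAJC2 at the ribosome, where the pair meets chains as they are made. HSPA14 averaged 146 ± 33.3 CPM in WT, against 112 ± 7.69 CPM in ZEB1-KO (SD, n = 3), with overlap. DNAJC2 measured 237, 196 and 162 CPM in WT, against 84.4, 149.6 and 161 CPM in ZEB1-KO, without overlap but with WT replicate 3 and ZEB1-KO replicate 3 next to each other. Both differences were negative, -0.39 for HSPA14 and -0.59 for DNAJC2, with adjusted p of 0.399 and 0.316 in edgeR's quasi-likelihood test. HSPA14 and DNAJC2 were described after their values had been seen.

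The HSP110 exchange factors showed no common direction. HSPH1 measured 309, 473 and 297 CPM in WT, against 245, 275 and 318 CPM in ZEB1-KO, and HSPA4 353, 345 and 264 against 254, 487 and 537 CPM. The groups overlapped in both, with log2 differences of -0.36 and 0.41. HSPA4L, the third of this kind, measured 7.60, 16.5 and 12.6 CPM in WT, against 9.98, 1.11 and 9.28 CPM in ZEB1-KO, so that ZEB1-KO replicate 2 stood alone. Its ratio of highest to lowest ZEB1-KO clone was 8.98.

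In mitochondria the HSP70 and the chaperonin barrel had more RNA in every ZEB1-KO clone. HSPA9, which also pulls proteins across the inner membrane, measured 741, 635 and 541 CPM in WT, against 813, 936 and 1277 CPM in ZEB1-KO, a log2 difference of 0.66 (SE 0.24; adjusted p 0.208, edgeR). HSPD1 measured 1845, 1441 and 1172 CPM in WT, against 2277, 2110 and 3250 CPM in ZEB1-KO, a difference of 0.78 (SE 0.26; adjusted p 0.183, edgeR). Neither passed the threshold, although the groups did not overlap. Without ZEB1-KO replicate 3, the highest clone in both, the differences were 0.45 and 0.56.

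HSPE1, whose start site lies 104 bases from that of HSPD1 on the stretch shown above, overlapped between the groups. It measured 537, 853 and 608 CPM in WT, against 625, 468 and 716 CPM in ZEB1-KO, a log2 difference of -0.14 (SE 0.26; 95% interval -0.73 to 0.44) whose sign turns positive, to 0.0093, with library size alone and to 0.14 on TPM. The HSPD1 to HSPE1 count ratio was 3.43, 1.69 and 1.93 in WT and 3.64, 4.51 and 4.54 in ZEB1-KO. Every ZEB1-KO ratio was the higher, with WT replicate 1 close to ZEB1-KO replicate 1. This ratio was looked at after the values had been seen and has no test. RefSeq names 22 HSPD1 and 28 HSPE1 pseudogenes, whose share in these counts was not tested.

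The mitochondrial J proteins held members at both ends. DNAJA3, also known as TID1 and the partner of HSPA9, measured 41.5, 27.2 and 26.5 CPM in WT, against 65.2, 72.2 and 63.8 CPM in ZEB1-KO, or 31.7 ± 8.44 against 67.0 ± 4.51 (SD, n = 3). The clones separated fully, with a log2 difference of 1.08 (SE 0.24) and an adjusted p of 0.0981 in edgeR's quasi-likelihood test, and over the alternatives tried this p ran from 0.00469 to 0.298. DNAJC11, a J protein of the membrane complex that shapes cristae, measured 12.3, 8.85 and 5.47 CPM in WT, against 16.2, 22.6 and 14.9 CPM in ZEB1-KO, a difference of 1.01 (SE 0.34; adjusted p 0.183, edgeR). DNAJC15, a J protein of the inner-membrane import motor, went the other way at 273, 298 and 227 CPM in WT, against 165, 163 and 109 CPM in ZEB1-KO. Every WT clone was the higher, by -0.87 on the log2 scale (SE 0.23), with an adjusted p of 0.125 in edgeR's quasi-likelihood test and 0.0311 in DESeq2. DNAJC19, its counterpart at the same motor, overlapped, with a difference of -0.23. Over the 7 mitochondrial J proteins 4 differences were positive and 3 negative, with a median of 0.11.

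**Figure D3:**
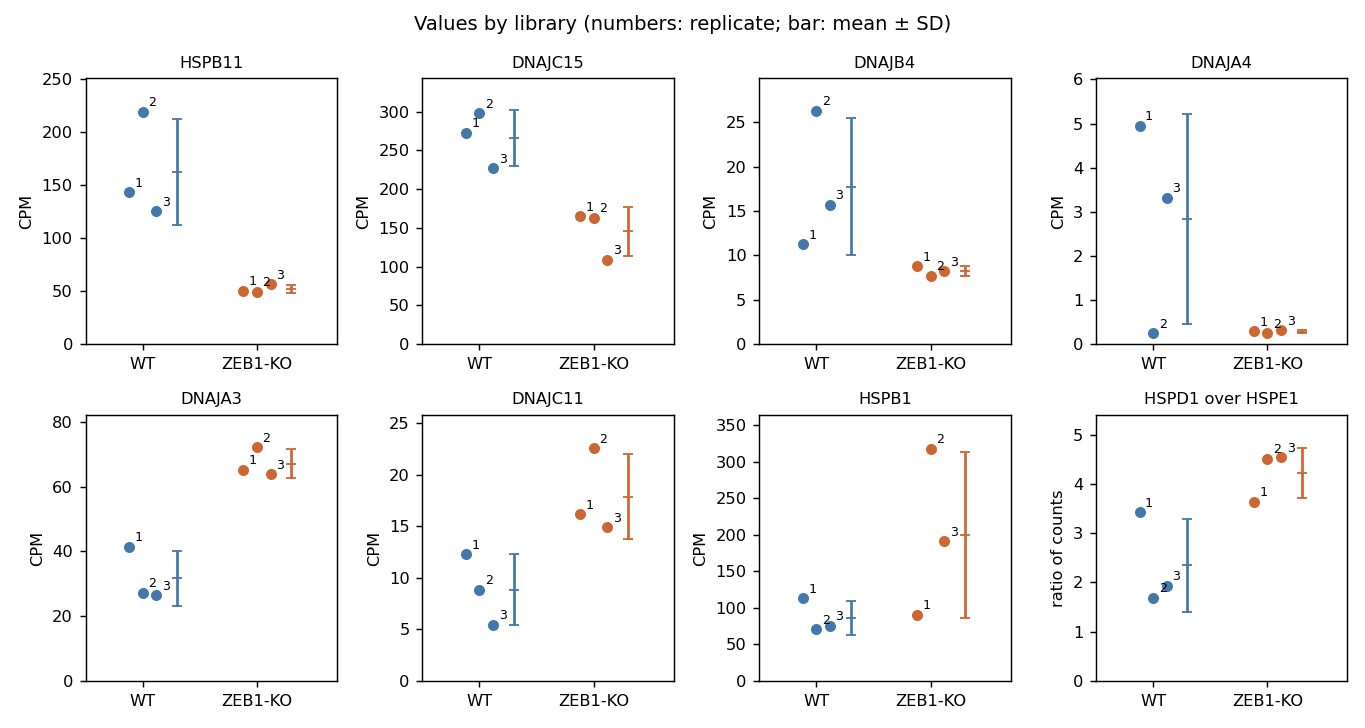
Values of 7 members in CPM and the HSPD1 to HSPE1 ratio of counts, by library, with replicate numbers and a bar for mean ± SD of the 3 clones. HSPB11, DNAJC15 and DNAJB4 are lower and DNAJA3 and DNAJC11 higher in every ZEB1-KO clone, while WT replicate 2 of DNAJA4 sits with the ZEB1-KO clones and ZEB1-KO replicate 1 of HSPB1 sits among the WT clones.

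HSPB1 (HSP27), a small heat shock protein also tied to actin dynamics, had the largest positive difference of the tested members with all 6 libraries in the fit. It measured 113, 70.5 and 75.4 CPM in WT, against 90.9, 318 and 191 CPM in ZEB1-KO. ZEB1-KO replicate 1 lay below WT replicate 1, so the groups overlapped. The log2 difference was 1.21 (SE 0.43), with an adjusted p of 0.194 in edgeR's quasi-likelihood test, and it was 0.71 without ZEB1-KO replicate 2, the highest clone.

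HSPB11 gave the lowest adjusted p among the members. It measured 143, 219 and 125 CPM in WT, against 50.2, 49.5 and 56.4 CPM in ZEB1-KO, or 162 ± 50 against 52.0 ± 3.79 (SD, n = 3). The 3 ZEB1-KO clones lay close together and below every WT clone. The difference was -1.64 on the log2 scale (SE 0.25), 3.12-fold, with an adjusted p of 0.0621 in edgeR's quasi-likelihood test. Over the 18 alternatives tried that p ran from 7.9e-06 to 0.161, and 6 of them were below 0.05. Despite its symbol, HSPB11 encodes IFT25, a subunit of the intraflagellar transport complex of cilia, and RefSeq now uses that name.

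The class A and B J proteins outside the endoplasmic reticulum and mitochondria are the general partners of cytosolic HSP70. DNAJA1, whose window holds a heat shock element, measured 389.9, 474 and 487 CPM in WT, against 359, 389 and 598 CPM in ZEB1-KO. Its log2 difference was -0.0056 (95% interval -0.57 to 0.56). Its sign was positive under the other scalings, up to 0.24, and the value was -0.27 without ZEB1-KO replicate 3. DNAJB1, the J protein that HSF1 is best known to induce, measured 202, 142 and 202 CPM in WT, against 211, 315 and 256 CPM in ZEB1-KO. The clones did not overlap, but WT replicates 1 and 3 lay just under ZEB1-KO replicate 1, and the difference of 0.52 (SE 0.24) had an adjusted p of 0.302 in edgeR's quasi-likelihood test.

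DNAJB4, a J protein known to bind E-cadherin, measured 11.3, 26.3 and 15.7 CPM in WT, against 8.78, 7.71 and 8.22 CPM in ZEB1-KO. All ZEB1-KO clones were lower, by -1.11 on the log2 scale (SE 0.34), with an adjusted p of 0.151 in edgeR's quasi-likelihood test and 0.0404 in DESeq2. Without WT replicate 2, the highest clone, the difference was -0.70. DNAJA4 varied widely between the WT clones, with 216, 8 and 82 counts in WT and 6, 10 and 10 in ZEB1-KO, or 4.95, 0.247 and 3.32 against 0.299, 0.247 and 0.311 CPM. WT replicate 2 was as low as the ZEB1-KO clones, and the WT clones differed 20.1-fold among themselves. The fitted difference was -3.31 (SE 0.92), with an adjusted p of 0.131 in edgeR's quasi-likelihood test and 0.00326 in DESeq2. DNAJA4 was named after its values had been seen.

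In the endoplasmic reticulum, HSPA5 measured 568, 492 and 536 CPM in WT, against 622, 794 and 585 CPM in ZEB1-KO. No clone of one group reached into the other, yet the difference of 0.33 (SE 0.20) had an adjusted p of 0.432 in edgeR's quasi-likelihood test. Its J proteins went both ways. DNAJC3 (P58IPK), which also restrains the kinase PERK, measured 41.3, 39.6 and 44.4 CPM in WT, against 32.6, 34.9 and 29.9 CPM in ZEB1-KO, a difference of -0.36 (SE 0.19) without overlap. DNAJB9 (ERdj4) measured 18.3, 28.2 and 25.9 CPM against 17.6, 15 and 20.5 CPM, with overlap and a difference of -0.45. DNAJB11, the main soluble partner of BiP, differed by -0.013, and DNAJC10, a J protein with disulfide reductase activity, by 0.19. DNAJB12 and DNAJB14, a pair of membrane J proteins, split: 0.53 and -0.61. DNAJB12 was higher in every ZEB1-KO clone, while DNAJB14 overlapped. Of the 7 J proteins of this compartment 5 had negative differences, with a median of -0.30, and 0 reached an unadjusted p of 0.05. With library size alone 4 of the 7 were negative, with a median of -0.15. On log2 of TPM plus 1 it was also 4, with a median of -0.045. Relative to all genes the median was -0.29 or -0.28 under each scaling.

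The other class C J proteins have specialised duties, and 12 of the 16 tested had negative differences, with a median of -0.22. With library size alone 9 of the 16 were negative. Relative to all genes the median stood at -0.21 under both scalings, as rescaling moves all genes nearly alike. DNAJC17 and DNAJC8, both linked to pre-mRNA splicing, are examples: DNAJC17 measured 15.1, 10.6 and 15.5 CPM in WT, against 7.48, 8.10 and 7.84 CPM in ZEB1-KO, without overlap (-0.81, SE 0.26; adjusted p 0.162, edgeR). DNAJC8 measured 315, 328 and 361 CPM against 310.2, 237 and 328 CPM, with overlap, and its difference of -0.20 turned to 0.065 on TPM. DNAJC21, which serves assembly of the large ribosomal subunit, measured 47.6, 59.4 and 37.8 CPM in WT, against 32.1, 26.6 and 35.0 CPM in ZEB1-KO, without overlap (-0.63; adjusted p 0.221, edgeR). DNAJC24 (DPH4), which takes part in making diphthamide on elongation factor eEF2, measured 7.95, 13.5 and 14.2 CPM against 8.73, 6.64 and 5.35 CPM, with overlap (-0.78; adjusted p 0.260, edgeR). DNAJC7, a TPR protein that handles clients of both HSP70 and HSP90, was the one of this group that was higher in every ZEB1-KO clone, at 73.9, 66.7 and 65.9 CPM in WT, against 95.3, 92.3 and 116 CPM in ZEB1-KO (0.56, SE 0.19; adjusted p 0.190, edgeR). Antisense genes of DNAJC3, DNAJC9 and DNAJC27 were counted at most 90, 35 and 68 times per library, and no source used here says whether counting used strand.

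Sorted by the response that is known to induce them, the 9 tested HSF1 targets (HSPA1A, HSPA1B, HSPA8, HSPB1, HSPD1, HSPE1, HSPH1, DNAJA1 and DNAJB1) had a median log2 difference of 0.48, with 6 positive. None was called in the quasi-likelihood test. Of the 9, 3 had an unadjusted p below 0.05 in that test, all higher (9.64% of all genes). In 4 the groups did not overlap, all higher (11.9% of all genes). HSPA1A is in both counts, although its sum with HSPA1B overlapped between the groups. The list holds members only, so BAG3 and HSP90AA1, given further below, are not in it. DNAJB6, whose window holds a heat shock element, is also outside it and differed by -0.085. Other members outside it went both ways, among them DNAJA4 (-3.31), DNAJB4 (-1.11), HSPA4L (-0.86) and HSPA4 (0.41). The median therefore depends on which genes are taken as targets. Relative to all genes the median of the 9 listed targets lay between 0.46 and 0.52 under every scaling tried, on TPM with 8 of them. Rescaling moves all genes nearly alike, so this range does not measure the spread between clones. No median with a library left out is given for this list. HSF1 itself, the factor, measured 3.57, 2.87 and 2.67 CPM in WT, against 3.04, 7.73 and 2.68 CPM in ZEB1-KO, so that ZEB1-KO replicate 2 stood apart: the difference was 0.56 with it and -0.092 without it. HSF2 differed by 0.037. The 6 targets of the unfolded protein response (HSPA5, HSPA13, DNAJB9, DNAJB11, DNAJC3 and DNAJC10) had a median of -0.068, with 2 positive and 0 at an unadjusted p below 0.05. No test compared these lists with each other.

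The median difference of the members varied with their abundance. Of the 17 members with a mean of at least 100 TPM, 9 had positive differences and the median was 0.29, where 435 of the 1307 genes at that level were positive with a median of -0.22. From 10 to under 100 TPM, 3 of 11 members were positive, with a median of -0.24 against 0.021 for all genes there. Below 10 TPM, 9 of 23 were positive, with a median of -0.14 against 0.051. An unadjusted p below 0.05 in edgeR's quasi-likelihood test was also more frequent among abundant genes. From the highest level down, 352 of 1307, 818 of 3729 and 950 of 5977 genes had one. Among the members it was 5 of 17, 3 of 11 and 5 of 23. These are descriptions over genes, which are not independent replicates.

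The summed RNA of the 71 members and the count of signs pointed different ways, since more members had negative than positive differences. The sum was 11082, 10827 and 10036 CPM in WT, against 11759, 12731 and 14963 CPM in ZEB1-KO. Every ZEB1-KO library lay above every WT library, with WT replicate 1 and ZEB1-KO replicate 1 the nearest. As a share of all counts, without scaling factors, the members took 1.13%, 0.967% and 0.944% in WT and 1.25%, 1.40% and 1.5% in ZEB1-KO. HSPA8 alone made up 29.4% to 31.9% of the members' counts in WT and 31.6% to 34.8% in ZEB1-KO. The higher sum rests mostly on HSPA8, HSPD1 and HSPA9, and is not a rise shared by the members. From WT to ZEB1-KO, mean CPM went from 3240 to 4367 for HSPA8, 1486 to 2546 for HSPD1 and 639 to 1009 for HSPA9. The remaining members held both rises and falls. In RNA from a pool of cells, more RNA per cell and more cells with high levels cannot be told apart. The sum was formed after the values had been seen and has no test.

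**Figure D4:**
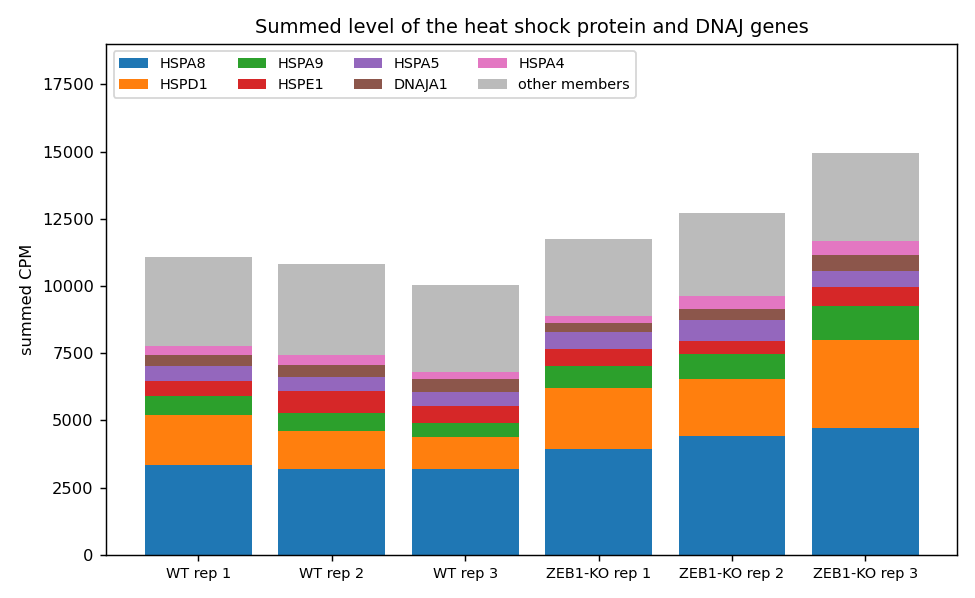
Summed CPM of the members in each of the 6 libraries, divided into HSPA8, HSPD1 and further members. The WT bars lie between 10036 and 11082 and the ZEB1-KO bars between 11759 and 14963.

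In neither group were the members more often spread widely between clones than genes at large. The genes at large were not matched to the members for abundance, and the members' median TPM was the higher. The ratio of highest to lowest WT clone had a median of 1.56 over 56 members, against 1.53 over all genes, and was above 2 in 19.6% of members against 24.3% of all genes. In ZEB1-KO the median was 1.52 over the 54 members with more than 3 counts in each clone, against 1.63 for all genes, and 14.8% of members were above 2 against 30.2% of all genes. Among the members so compared, DNAJA4 in WT and HSPA4L in ZEB1-KO were the widest. HSPA8 was among the steadiest, with ratios of 1.05 in WT and 1.20 in ZEB1-KO.

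Of 68 other genes of the chaperone network, chosen by name, 67 were tested and 0 were called by the quasi-likelihood test. Before adjustment 18 had a p below 0.05, 26.9% against 17.7% of all genes, with 11 higher (9.64% of all genes) and 7 lower (8.04% of all genes). Here too the share over all genes is not matched for abundance. The median log2 fold change of these chaperone network genes was 0.078, against -0.0082 for all genes. Those that DESeq2 called included CCT3 and STIP1, both higher, and PFDN4, lower. The stress-inducible HSP90AA1 overlapped, at 7204, 7813 and 8481 CPM in WT, against 5761, 5698 and 11269 CPM in ZEB1-KO (-0.048, but 0.085 with library size alone and -0.45 without ZEB1-KO replicate 3). The constitutive HSP90AB1 was higher in every ZEB1-KO clone, at 2839, 3096 and 2449 CPM in WT, against 3851, 4334 and 3674 CPM in ZEB1-KO (0.50, SE 0.20; adjusted p 0.245, edgeR). TRAP1, the mitochondrial HSP90, measured 138, 56.5 and 81.0 CPM against 156, 151 and 156 CPM, a difference of 0.75 without overlap (adjusted p 0.267, edgeR). HSP90B1, that of the endoplasmic reticulum, differed by -0.30. The 16 HSP90 co-chaperones, 11 of them positive, had a median of 0.40. BAG3, an exchange factor that HSF1 induces, differed by -0.19, turning to 0.06 on TPM. In the endoplasmic reticulum HYOU1, an HSP110-like exchange factor for BiP, differed by 0.53 and SDF2L1, a partner of BiP and DNAJB11, by -0.47, and both overlapped.

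**Figure D5:**
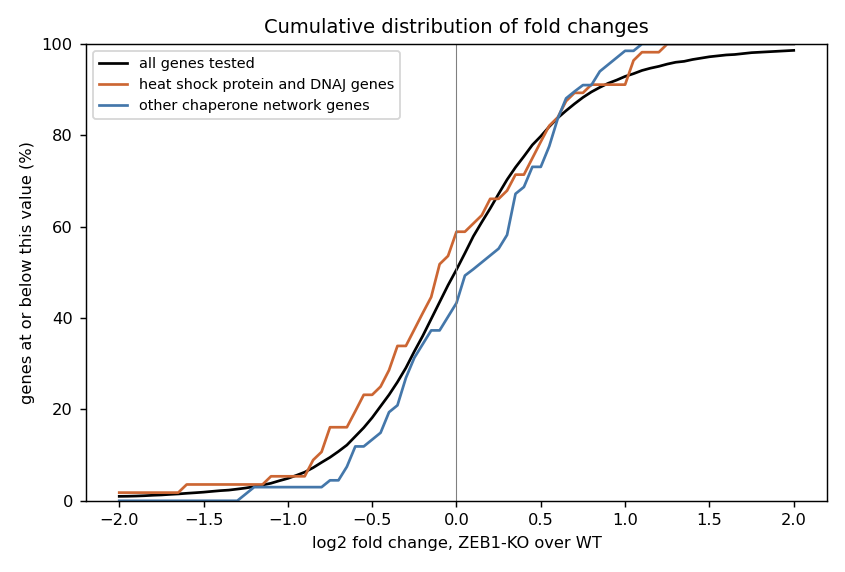
Percent of genes at or below each log2 fold change of ZEB1-KO over WT, for all tested genes, the 56 tested heat shock protein and DNAJ genes and 67 other chaperone network genes. The members' curve lies above that of all genes from -0.85 to 0.2 and dips below it at -0.95 and -0.9, and the curve of the other chaperone genes, with a median of 0.078, lies mostly to its right.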

How the data were processed

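RNA of 3 WT and 3 ZEB1-KO MiaPaCa2 clones was made into SMART-Seq2 libraries and sequenced on a HiSeq instrument, per the labels. The submitters' processing notes list TopHat2 2.1.0, HTSeq 0.6.1, edgeR 3.2.2 and the builds hg19 and GRCh37, without settings, strand use or handling of reads that fit several places. The authors deposited raw counts for each symbol, TPM values scaled to one total over 11013 genes, and a result table with log2 fold changes and mean log2 CPM, a likelihood ratio score, and p-values, per the file headers. SMART-Seq2 amplifies full-length cDNA by PCR without molecular identifiers, so floors of 3 counts cover counting error only.

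Counts were fitted with edgeR 4.0.16 in R 4.3.3: TMM factors, genes kept by filterByExpr (minimum count 10, total 15), the quasi-likelihood test on 4 residual and 4.35 prior degrees of freedom, two-sided, p adjusted by Benjamini-Hochberg across all 13659 tested genes and a threshold of 0.05. CPM are TMM-scaled. Intervals of 95% come from the SE and these degrees of freedom. Alternatives were DESeq2 1.42.0, limma 3.58.1 and those in the closing section, and the scripts were tested on simulated data. Nothing states that the clones of a group were grown separately after sorting, so p-values measure the spread between these 6 libraries. No libraries of a group were near-copies: the lowest chi-square per gene between them was 127.

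Members and lists were chosen with earlier results of these data known. Named were 15 genes chosen by name, members at an unadjusted p below 0.05 with at least 5 CPM in the higher group, the 8 of highest mean TPM, up to 6 with the largest difference each way, and 9 partner genes; others are said to be chosen after their values were seen or stand in a role group. RefSeq promoter windows (GRCh38.p14) were matched by symbol and gene ID. The deposited table's fold changes correlated at 1.00 across genes with those fitted here.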

Additional observations from a re-analysis of the deposited data

How the results depend on the processing

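Across all genes the number called was 24, and it was 134 without a filter on low counts, 617 with the likelihood ratio test, 935 with DESeq2, 101 on log2(TPM + 1), 94 on log2(TPM + 0.1), 80 on log2(TPM + 1) without a filter, and 5 to 25 with 1 library left out. Of the members, 0 were called by the quasi-likelihood test, 1 (HSPB11) without a filter and on each of the TPM scales, 3 with the likelihood ratio test, 5 with DESeq2 and 0 with any 1 library left out. Of the other chaperone genes the likelihood ratio test called 3 and DESeq2 called 4. HSPB11 had an adjusted p of 0.0209 without a filter, 6.4e-05 with the likelihood ratio test, 7.9e-06 with DESeq2 and 0.0472 to 0.0488 on TPM (limma). The members at an unadjusted p below 0.05 numbered 14, falling to 8 when WT replicate 2 was left out, to 7 when WT replicate 3 was and to 9 when ZEB1-KO replicate 2 was. Their median log2 fold change of -0.12 was 0.03 with library size alone, 0.13 on log2(TPM + 1), 0.14 on log2(TPM + 0.1), 0.13 on TPM without a filter, and -0.22 to -0.013 with 1 library left out. The cause of these shifts was not tested.

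Signs changed for 8 of 34 named genes. DNAJA1 gave 0.0047 with RLE factors, 0.005 with upper quartile factors, 0.14 with library size alone, 0.0072 with DESeq2, 0.24 on each TPM scale, and 0.046, 0.059, 0.13 and 0.087 with WT 2, WT 3, ZEB1-KO 1 and ZEB1-KO 2 left out in turn, within -0.27 to 0.13 over all 6. HSPE1 gave 0.0093 with library size alone, 0.14 on each TPM scale, 0.086 with WT 2 and 0.009 with ZEB1-KO 2 left out (lowest -0.28). HSP90AA1 gave 0.085 with library size alone, 0.15 on each TPM scale, 0.018 with WT 3 and 0.12 with ZEB1-KO 1 or 2 left out (lowest -0.45). BAG3 gave 0.06, 0.061 and 0.06 on the TPM scales, 0.17 with WT 2 and 0.045 with ZEB1-KO 3 left out (lowest -0.59). DNAJC8 gave 0.065 on each TPM scale, HSF1 -0.092 without ZEB1-KO replicate 2 (highest 0.83), and HSF2 -0.048 with WT 1 left out (highest 0.14). HSPA2 gave -0.18 with the replicate block, -0.36 with limma-voom and -2.05 without ZEB1-KO replicate 2 (highest 1.20).

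With the replicate number as a block, 20 genes and 0 members were called. Same-numbered WT and ZEB1-KO libraries correlated at 0.0219, 0.00714 and 0.224 in their deviations, and not every library correlated best with its own number, so the numbers were not taken as pairs. Members such as HSPA1A and DNAJA4 were counted below 50 in several libraries, so counting error weighs more on them. For DNAJA4 the spread between WT clones is a further limit. It had 8 counts in WT replicate 2 and 82 in WT replicate 3, the library with the smaller total.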
